A study of Homo sapiens with 6 samples.

Results

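The genes described here are the 3 members of the human ADF/cofilin family (CFL1, CFL2 and DSTN), 3 kinase genes whose products phosphorylate cofilin (LIMK1, LIMK2 and TESK1) and 4 phosphatase genes whose products remove that phosphate (SSH1, SSH2, SSH3 and PDXP). They were taken by name from the deposited count table after gene IDs were paired with symbols, and all 10 of 10 were found among 61852 genes. RNA was compared between MEG-01 cells transduced with the control vector pLKO.1 (n = 3 libraries) and MEG-01 cells transduced with the MELK short hairpin RNA named sh2-MELK (n = 3 libraries). MEG-01 is an established human megakaryoblast line from chronic myeloid leukaemia in blast crisis. Both groups are the same line in the same labelled batch, no drug is named, and the knockdown rests on 1 hairpin. The labels call the libraries independent biological replicates, without saying whether they are separate cultures or transductions. The series' title places the comparison in ERK and cofilin signalling.

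Cofilins bind actin filaments, sever them and speed their disassembly. Phosphorylation of a serine next to the amino terminus by LIM kinases or TESK kinases stops that binding, and slingshot phosphatases and chronophin, the product of PDXP, restore it. LIM kinases are in turn switched on by ROCK and PAK, kinases that act downstream of small GTPases. In megakaryocytes, actin turnover is needed for the late steps of platelet formation. RNA counts do not measure phosphorylation or protein.

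The serine that the kinases and phosphatases act on is the third codon of all 3 ADF/cofilin genes. The first 30 bases of each coding sequence are shown 5′ to 3′, as annotated in GENCODE release 29, with the third codon in capitals, because this is the site on which the 7 enzyme genes converge.
CFL1: atggccTCCggtgtggctgtctctgatggt
CFL2: atggctTCTggagttacagtgaatgatgaa
DSTN: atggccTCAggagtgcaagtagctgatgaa
Each of the 3 genes spells this serine with a different codon, TCC in CFL1, TCT in CFL2 and TCA in DSTN. On GRCh38 the codon lies at chr11:65856237-65856239 on the minus strand for CFL1, chr14:34713556-34713558 on the minus strand for CFL2 and chr20:17600741-17600743 on the plus strand for DSTN. The coding sequences hold 166, 166 and 165 codons before the stop. Between CFL1 and CFL2, 70.1% of aligned coding bases and 80.7% of translated residues were identical. For CFL1 and DSTN the shares were 64.2% and 71.5%, and for CFL2 and DSTN 68.3% and 69.1%.

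Library totals ran from 18945176 to 21711313 counts. Of the 61852 genes, 57.9% held only the values 0, 1, 2, 10 or 100, so the deposited values appear to carry an added number on top of the reads. This touches the members with few reads most, and for them the model of the added number stands beside the fit. MELK, the targeted kinase, had values of 219, 206 and 238 with the control vector and 16, 124 and 26 with the hairpin (log2 fold change -1.98 ± 0.69 SE, edgeR adjusted p = 0.104), or -3.39 (95% interval -3.88 to -2.96) with the added number modelled. Of 14 megakaryocyte markers, 8 were above 100 counts in all 6 libraries, ITGA2B and GATA1 among them, while GP1BB, GP9, PF4, PPBP and VWF were among those that were not. Of the other lists, 6 of 8 erythroid, 2 of 6 granulocyte and monocyte and 0 of 4 lymphocyte markers were above 100 counts in all 6 libraries. Between the groups, 2 megakaryocyte markers rose and 5 fell, 4 erythroid markers fell, and in the granulocyte and monocyte list LYZ rose and ITGAM fell. Beside them, 8.12% of all genes tested rose and 8.43% fell in the edgeR fit. Among genes averaging 500 counts or more, 32.5% rose and 35.5% fell. The part of the marker shifts in the results below was not tested. In bulk RNA, fewer cells that express a gene and less RNA per cell cannot be told apart.

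In the knockdown libraries DSTN and SSH1 rose about 2-fold, CFL1 rose slightly and SSH3 fell to 0.665 of its control level. Of the 10 members, 3 passed the threshold upward, 1 downward and 6 did not pass (edgeR quasi-likelihood test, Benjamini-Hochberg adjusted over 28303 genes). Over all genes tested 16.5% passed, 8.12% upward and 8.43% downward. That background includes many genes with few or no reads. Of the 6 members averaging 500 counts or more, 4 passed, beside 68% of the 5038 genes at that level, so the members’ share was near the background of well-counted genes. A separate edgeR fit of those genes alone called 77% (38.1% upward, 38.9% downward), and the same 4 members. With the trends of GC content and transcript length removed, 5 of the 6 passed, 4 upward and 1 downward, beside 75.6% of genes (39.8% upward, 35.8% downward). With the added number modelled, 7 of the 10 passed, 4 upward and 3 downward, beside 31.6% of genes (15.3% upward, 16.4% downward). The 3 knockdown libraries lay wholly above or below the 3 control libraries in 5 members, beside 30.7% of all genes tested. All 5 averaged 500 counts or more, and the share among all genes at that level was not computed, so this background is not a matched one. The median log2 fold change was 0.10 over the members and 0.02 over all genes tested. Among those averaging 500 counts or more it was 0.12 over the members and -0.02 over all genes.

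**Figure D1:**
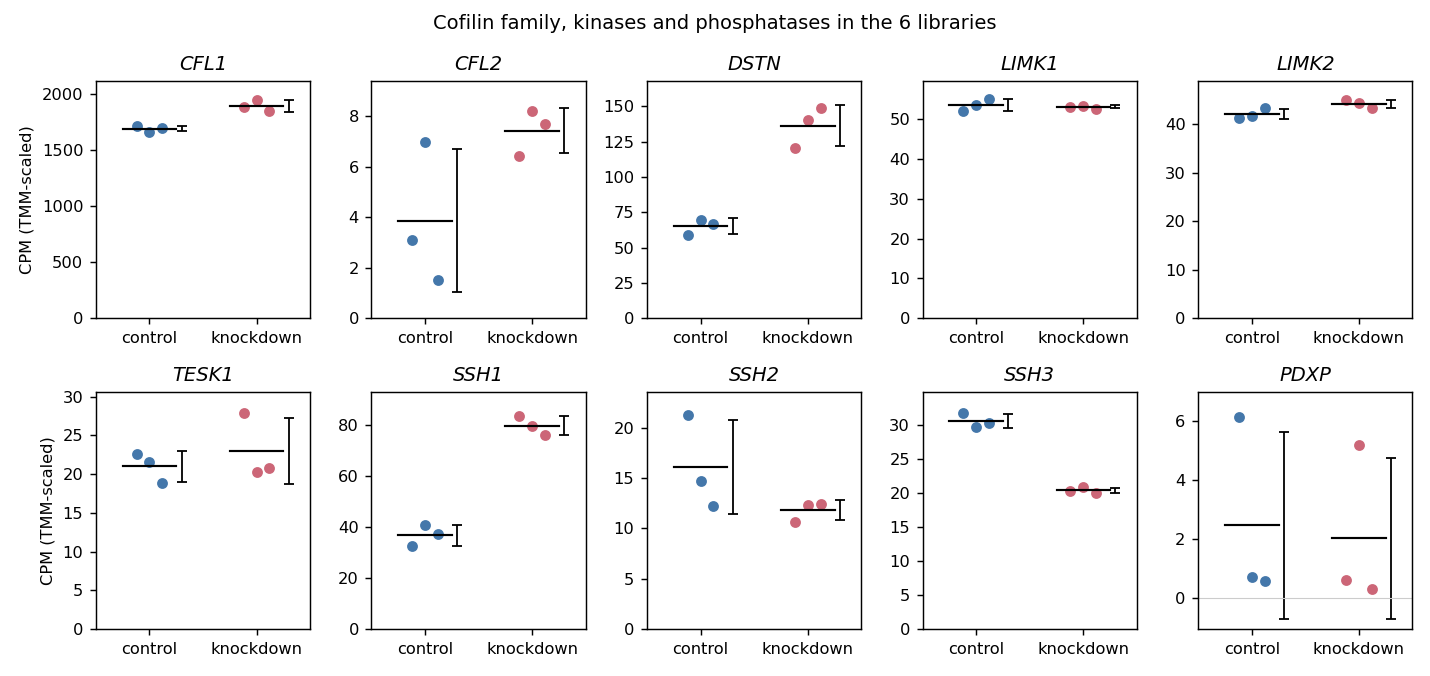
CPM values (library totals scaled by TMM) of the 10 genes in each library, with the 3 control libraries in blue and the 3 knockdown libraries in red. Horizontal lines are group means and bars are ± 1 SD (n = 3). DSTN and SSH1 stand higher and SSH3 lower in all 3 knockdown libraries, while 1 library stands apart in CFL2, TESK1 and SSH2 and 1 in each group in PDXP.

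CFL1 (ENSG00000172757.13, GRCh38 chromosome 11, 65823022 to 65862026, minus strand) encodes the non-muscle cofilin and was by far the most abundant member. Its levels were 1713, 1666 and 1701 CPM with the control vector and 1891, 1948 and 1849 CPM with the hairpin. Every knockdown library lay above every control library, by a small margin. The mean rose from 1693 ± 24.6 to 1896 ± 49.7 CPM (SD, n = 3), 1.12-fold (log2 fold change 0.16 ± 0.03 SE, edgeR adjusted p = 0.00272). The call held when each library was left out in turn and the same genes were tested (log2 fold change 0.14 to 0.18, edgeR adjusted p of 0.006 to 0.0214). With the trends of GC content and transcript length removed, the log2 fold change was 0.35 (limma adjusted p = 6.58e-05). The GC content of its longest transcript is 57.7%, and genes with a GC content of 55% to 60% and averages of 500 counts or more had a median log2 fold change of -0.16. At 32086 to 39209 counts per library, an added number of up to 100 in any library leaves the log2 ratio of means between 0.16 and 0.17.

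DSTN (ENSG00000125868.16, chromosome 20, 17569863 to 17609919, plus strand) encodes destrin, also called ADF, which severs filaments as cofilin does and depolymerises them strongly. Its levels were 59.1, 69.7 and 67.0 CPM with the control vector and 120.4, 140.0 and 148.7 CPM with the hairpin. The groups were far apart, with the lowest knockdown library well above the highest control library. The mean rose from 65.3 ± 5.49 to 136.3 ± 14.5 CPM (SD, n = 3), 2.09-fold (log2 fold change 1.06 ± 0.09 SE, edgeR adjusted p = 6.09e-05). Its 95% interval, 0.86 to 1.27, lay wholly above that of CFL1, 0.10 to 0.22, so within the family the less abundant gene had the larger relative rise. An added number of up to 100 in any library leaves the log2 ratio of means between 1.01 and 1.18. Genes with a GC content of 40% to 45%, the range in which DSTN (42.3%) lies, had a median log2 fold change of 0.33. With the GC and length trends removed, DSTN was at 0.75 (limma adjusted p = 5.3e-05).

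CFL2 (ENSG00000165410.15, chromosome 14, 34706769 to 34714823, minus strand) encodes the muscle-type cofilin and had few reads. The deposited values were 63, 135 and 31 counts with the control vector and 127, 165 and 145 counts with the hairpin. Control library 2 overlapped the knockdown libraries, and the other 2 control libraries lay below them. The log2 fold change was 0.94 ± 0.56 (SE, 95% interval -0.35 to 2.24) and did not pass (edgeR adjusted p = 0.371). It was 1.69 without control library 2 and 0.57 without control library 3 (edgeR adjusted p = 0.12 and 0.558). The model placed an added 100 in control library 2 and in none of the others, and estimated 1.98 CPM (95% interval 1.62 to 2.41) in the control and 7.28 CPM (6.46 to 8.17) in the knockdown. The modelled log2 fold change was 1.87 (95% interval 1.55 to 2.21). With no model, an added number of up to 100 in any library leaves the log2 ratio anywhere between -0.73 and 3.62, so the direction rests on the model.

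Per kilobase of merged exons, the 3 ADF/cofilin genes summed to 306 ± 2.7 in the control and 360 ± 8.59 CPM per kilobase in the knockdown (SD, n = 3). The share of DSTN in that sum was 4.98%, 5.97% and 5.66% with the control vector and 8.81%, 9.83% and 10.9% with the hairpin. CFL1 made up 94.3% ± 0.583 and 89.9% ± 1.06 (SD, n = 3). CFL2 stayed under 0.4% in every library (0.0685% to 0.322%). CFL1 therefore remained the dominant transcript of the family in all 6 libraries, and the share of DSTN was higher in each knockdown library than in any control library. With the longest annotated transcript as the length, DSTN was at 1.96% and 3.60%, since the merged exons of CFL1 (5863 bases) are much longer than its longest transcript (1878 bases).

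**Figure D2:**
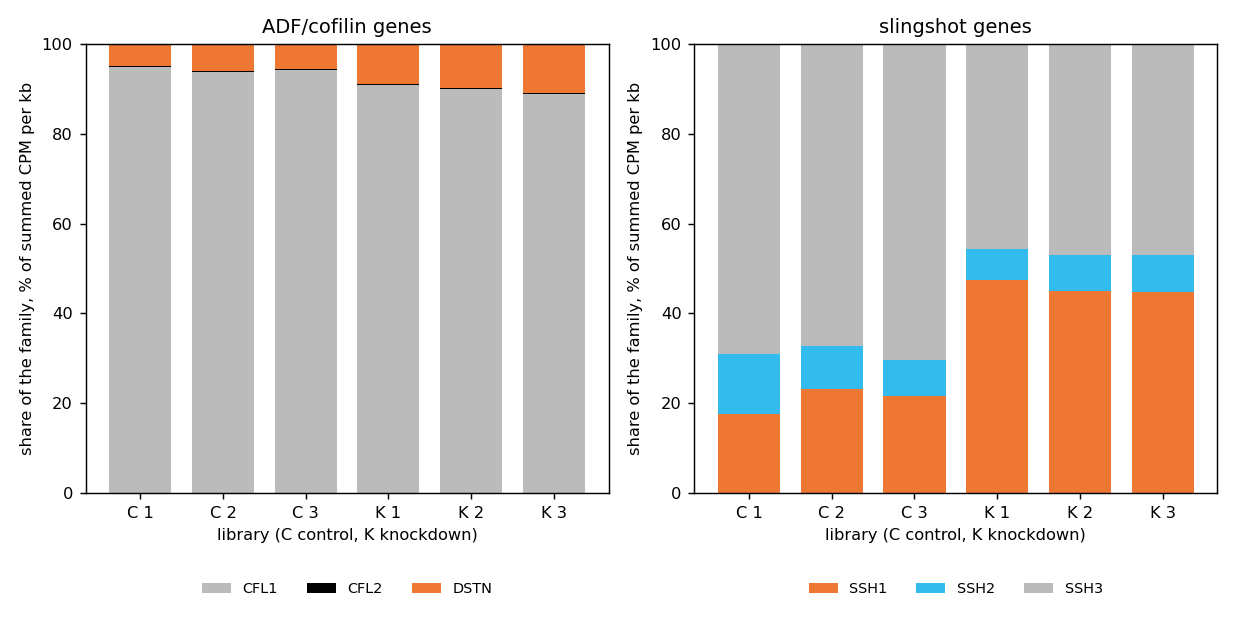
Share of each gene in the summed CPM per kilobase of its family, for the ADF/cofilin genes (left) and the slingshot genes (right), 1 bar per library. The DSTN share goes from 4.98% to 5.97% in the control libraries to 8.81% to 10.9% in the knockdown libraries, and the SSH1 share from 17.7% to 23.1% to 44.7% to 47.4%.

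The LIM kinase genes gave nearly the same values in both groups. LIMK1 (ENSG00000106683.15, chromosome 7, 74082933 to 74122525, plus strand), a kinase activated by ROCK and PAK, was at 52.0, 53.6 and 54.99 CPM with the control vector and 53.2, 53.4 and 52.7 CPM with the hairpin. The knockdown values fell inside the control range. Its log2 fold change was -0.01 ± 0.05 (SE), did not pass (edgeR adjusted p = 0.996), and had a 95% interval of -0.12 to 0.09. LIMK2 (ENSG00000182541.18, chromosome 22, 31212239 to 31280080, plus strand), its paralogue, was at 41.4, 41.7 and 43.3 CPM in the control and 45.1, 44.4 and 43.4 CPM in the knockdown. The 3 knockdown values lay just above the 3 control values, without a call (log2 fold change 0.07 ± 0.05, 95% interval -0.05 to 0.19, edgeR adjusted p = 0.486). With the GC and length trends removed LIMK2 passed at a log2 fold change of 0.15 (limma adjusted p = 0.00678). For both LIM kinases the 95% interval leaves no room for a change as large as that of SSH1 or DSTN.

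TESK1 (ENSG00000107140.16, chromosome 9, 35605305 to 35610041, plus strand) encodes a cofilin kinase that is regulated by adhesion. The deposited values were 462, 416 and 385 with the control vector and 550, 408 and 392 counts with the hairpin. Knockdown library 1 stood above all others, and the model gave a probability of 0.997 that it holds an added 100. The log2 fold change was 0.13 ± 0.15 (SE, 95% interval -0.21 to 0.47, edgeR adjusted p = 0.715). It was 0.03 with the added number modelled and -0.03 without knockdown library 1. Its paralogue TESK2, which is not among the 10 genes, rose from 26.5 ± 0.699 to 38.3 ± 4.86 CPM (SD, n = 3) (log2 fold change 0.53 ± 0.10 SE, edgeR adjusted p = 0.00621).

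The slingshot genes moved apart. SSH1 (ENSG00000084112.15, chromosome 12, 108778192 to 108857590, minus strand) encodes a slingshot phosphatase that is itself activated by filamentous actin. Its levels were 32.5, 40.7 and 37.3 CPM with the control vector and 83.7, 79.7 and 76.1 CPM with the hairpin. All 3 knockdown libraries were far above all 3 control libraries. The mean rose from 36.8 ± 4.11 to 79.8 ± 3.79 CPM (SD, n = 3), 2.17-fold (log2 fold change 1.12 ± 0.08 SE, edgeR adjusted p = 2.99e-05). The bounds for an added number of up to 100 were 1.02 and 1.33, and with the GC and length trends removed the value was 1.17 (limma adjusted p = 6.56e-06).

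SSH3 (ENSG00000172830.13, chromosome 11, 67303448 to 67312607, plus strand) encodes the slingshot paralogue that does not bind filamentous actin as tightly. Its levels were 31.7, 29.8 and 30.3 CPM with the control vector and 20.3, 20.8 and 20.0 CPM with the hairpin. Spread within each group was small and the groups did not overlap. The mean fell from 30.6 ± 1.00 to 20.4 ± 0.43 CPM (SD, n = 3), to 0.665 of the control mean (log2 fold change -0.59 ± 0.07 SE, edgeR adjusted p = 0.000528). The 95% intervals of SSH1 (0.93 to 1.31) and SSH3 (-0.76 to -0.42) lay on opposite sides of 0. Genes with a GC content of 60% to 65%, as in SSH3 (62.5%), had a median log2 fold change of -0.26. With the GC and length trends removed the fall was smaller, at -0.29 (limma adjusted p = 0.000174).

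SSH2 (ENSG00000141298.19, chromosome 17, 29625938 to 29930276, minus strand), another slingshot phosphatase, had deposited values of 435, 284 and 250 with the control vector and 210, 248 and 234 counts with the hairpin. Control library 1 stood apart from the other 5, which lay close together. The log2 fold change was -0.45 ± 0.21 (SE, 95% interval -0.94 to 0.04) and did not pass (edgeR adjusted p = 0.265). The model placed an added 100 in control library 1, and the modelled log2 fold change was -0.30 (95% interval -0.49 to -0.11). Without control library 1 the edgeR value was -0.19 (adjusted p = 0.566). The bounds for an added number of up to 100 in any library were -1.27 and 0.09.

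PDXP (ENSG00000241360.2, chromosome 22, 37658727 to 37666934, plus strand) encodes chronophin, which dephosphorylates cofilin and also pyridoxal phosphate, the active form of vitamin B6. The deposited values were 125, 14 and 12 with the control vector and 12, 104 and 6 counts with the hairpin. One library in each group exceeded 100 and the other 4 held at most 14. The fit could say little (log2 fold change -0.29 ± 1.69, 95% interval -4.20 to 3.62, edgeR adjusted p = 1). The model placed the added 100 in control library 1 and knockdown library 2 and estimated 16.4 reads per control library and 3.65 per knockdown library. The 3.65 lies below the deposited 12 and 6 of knockdown libraries 1 and 3, so it also rests on smaller added numbers. Control library 3 held the same 12 as knockdown library 1. The modelled log2 fold change was -2.14 (95% interval -3.23 to -0.74), and the bounds without a model run from -5.23 to 2.32. Of the merged exons of PDXP, 62.6% are shared with an overlapping gene annotated on the same strand, which was listed at 0 to 100, and how the authors' counting treated shared reads is not given in the sources used here.

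**Figure D3:**
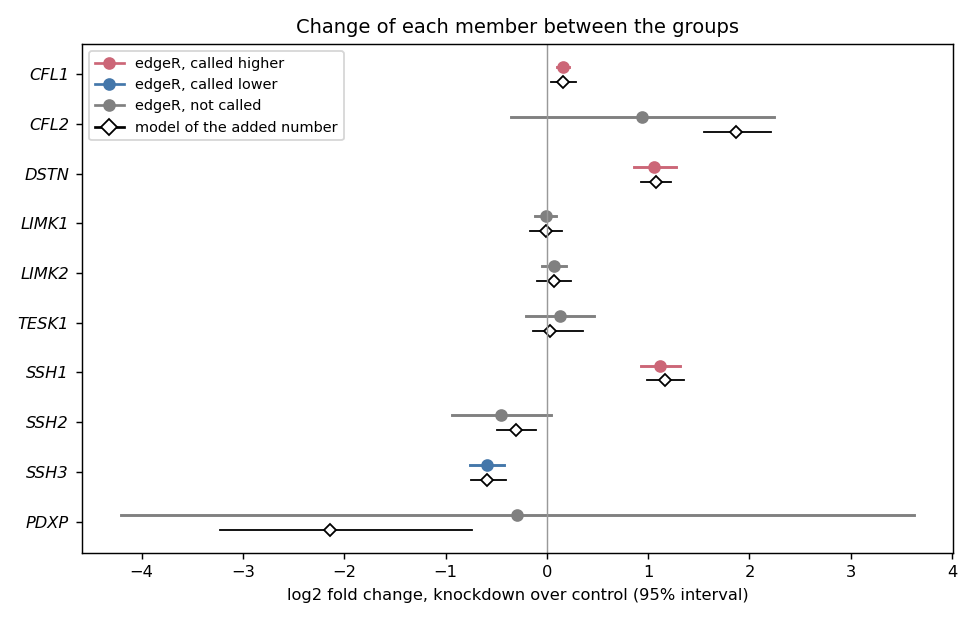
Log2 fold change of each gene, knockdown over control, with 95% intervals, from the edgeR fit (filled circles, coloured where the gene passed the threshold) and from the model of the added number (open diamonds). The 2 estimates lie close together for CFL1, DSTN, LIMK1, LIMK2, SSH1 and SSH3 and come apart for CFL2 and PDXP, where the edgeR interval is wide.

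The rise of SSH1 and the fall of SSH3 left the summed slingshot level per kilobase nearly the same, at 12.6, 12.1 and 11.8 CPM per kilobase with the control vector and 12.2, 12.2 and 11.7 with the hairpin. The ranges overlap. The makeup of that sum changed, with SSH1 at 20.8% ± 2.77 in the control and 45.7% ± 1.43 in the knockdown and SSH3 at 68.9% ± 1.45 and 46.5% ± 0.697 (SD, n = 3). The equality of the sums rests on gene length, as SSH1 has 14537 bases of merged exons and SSH3 3641. In CPM without length, the slingshot genes summed to 83.5 in the control and 112 in the knockdown, and the share of SSH1 was 44.2% and 71.3%.

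The 3 kinase genes summed to 21.0 ± 0.239 CPM per kilobase in the control and 21.8 ± 1.42 in the knockdown, and the 4 phosphatase genes to 13.3 ± 1.81 and 12.9 ± 1.4 (SD, n = 3). The kinase sum leaves out TESK2, which was at 7.98 CPM per kilobase in the control and 11.5 in the knockdown. Also without TESK2, the ratio of phosphatase to kinase level was 0.636 ± 0.0815 and 0.594 ± 0.0834 (SD, n = 3). Its ranges overlap, from 0.586 to 0.73 in the control and from 0.53 to 0.689 in the knockdown. With the added number modelled the ratio was 0.591 and 0.567. In CPM without length it was 0.737 and 0.948, so the direction of this ratio turns with the scale. On that scale the ranges did not overlap, from 0.687 to 0.79 in the control and from 0.913 to 0.999 in the knockdown.

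Set in order of CPM per kilobase, the control libraries gave CFL1 (289), DSTN (17.0), SSH3 (8.40), LIMK1 (7.76), LIMK2 (6.83), TESK1 (6.37), SSH1 (2.53), SSH2 (1.27), PDXP (1.13) and CFL2 (0.539). LIMK2 and TESK1 overlapped over libraries, as did SSH2, PDXP and CFL2, and the other neighbours did not. In the knockdown libraries the order was CFL1 (323), DSTN (35.4), LIMK1 (7.69), LIMK2 (7.17), TESK1 (6.97), SSH3 (5.59), SSH1 (5.49), CFL2 (1.04), SSH2 (0.929) and PDXP (0.922). SSH3 moved from ahead of to behind the 3 kinases, and SSH1 drew level with it, their ranges of 5.49 to 5.72 and 5.23 to 5.76 overlapping. The place of SSH3 in the control depends on the length used. Per kilobase of the longest transcript it was at 10.2, below LIMK1 (15.9) and LIMK2 (11.5). Both orders use the deposited values, where the added 100 in control library 1 and knockdown library 2 lifts PDXP. With it modelled, PDXP had 0.819 CPM over the control libraries, not 2.48, and 0.187 over the knockdown libraries, not 2.03. Modelled CFL2 likewise had 1.98 CPM, not 3.87, over the control libraries. SSH2 hardly moved in the knockdown (11.6 CPM modelled, 11.8 deposited), so its near tie with PDXP there rests on the added number.

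The sequence upstream of the first listed start of SSH1 and SSH3, the slingshot genes that moved in opposite directions, is shown from RefSeq on GRCh38.p14, as the 250 bases before the start, 5′ to 3′ on the strand of the gene. Capitals mark each GC box, searched as GGGCGG on both strands. The windows are chr12:108857584-108857833 on the minus strand for SSH1 and chr11:67303280-67303529 on the plus strand for SSH3.
SSH1: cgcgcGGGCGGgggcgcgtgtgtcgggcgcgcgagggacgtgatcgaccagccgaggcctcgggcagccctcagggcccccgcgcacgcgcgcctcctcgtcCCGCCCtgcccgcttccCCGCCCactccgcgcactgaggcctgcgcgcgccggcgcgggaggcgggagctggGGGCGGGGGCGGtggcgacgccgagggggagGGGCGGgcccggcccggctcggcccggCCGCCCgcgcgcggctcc
SSH3: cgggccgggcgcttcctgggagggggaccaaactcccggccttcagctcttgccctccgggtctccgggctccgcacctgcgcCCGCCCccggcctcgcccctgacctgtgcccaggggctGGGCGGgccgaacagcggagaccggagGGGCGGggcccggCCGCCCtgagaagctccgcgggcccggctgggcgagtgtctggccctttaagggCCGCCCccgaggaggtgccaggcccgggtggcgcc
The SSH1 window holds 7 GC boxes and has a GC content of 85.2%, and the SSH3 window holds 5 and has 78.4%. The median GC content over 35116 promoter windows of this length was 58%. The 10 genes have 15 such windows, and 12 of them hold at least 1 GC box, beside 42.6% of all windows. The windows set beside them here were not matched for GC content. The window of the second listed SSH1 start has a GC content of 50.8% and holds no GC box. An E-box (CACGTG) was found in 1 window, that of CFL2, beside 6.34% of all windows, and the RUNX word TGTGGT in 2, both of LIMK2, beside 11% of all windows. None of the 15 windows holds the cAMP response element TGACGTCA, the AP-1 word TGANTCA, the GATA word AGATAA, the TEAD word GGAATG or the CArG box, which 1.65%, 6.57%, 9.17%, 11.9% and 1.16% of all windows hold. These are matches of letters, not sites shown to be bound.

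Reads of 5 of the 10 genes could be shared with an overlapping gene. The merged exons of CFL1 overlap those of SNX32 and MUS81 on the other strand over 19% of their length, and those of TESK1 overlap CD72 over 15.4%. SNX32 and MUS81 had at most 1484 counts in any library, far below CFL1, and CD72 at most 107. For SSH1 and SSH2 the shared part was 2.3% and 0.591%. No processed or other pseudogene of CFL1 (8 of them) or DSTN (5 of them) exceeded 102 counts in any library. The longest run of bases shared exactly with a pseudogene was 62 for DSTN (with DSTNP2; DSTNP3 was not compared) and 52 for CFL1 (with CFL1P2). Among the 10 genes themselves, the longest runs were 52 between LIMK1 and SSH1, 39 between LIMK1 and SSH2 and between SSH1 and SSH2, and 33 and 31 between CFL2 and SSH1 and SSH2. Within the ADF/cofilin family the longest was 24, between CFL2 and DSTN.

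Around the 10 genes, the wider cofilin pathway moved both ways. Of 49 other genes of this pathway, all tested, 17 rose, 14 fell and 18 did not pass, with a median log2 fold change of 0.08 beside 0.02 over all genes tested. Of the 35 averaging 500 counts or more, 16 rose and 14 fell, beside 68% of all genes at that level, 32.5% upward and 35.5% downward. The pathway genes were not examined with the GC and length trends removed. Over all genes at that level, the median log2 fold change ran from 0.39 below 40% GC to -0.29 at 65% GC or more.

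Upstream of the LIM kinases, 2 of 11 GTPase and kinase genes rose, 4 fell and 5 did not pass. RAC1, a GTPase that acts through PAK, was at 120.2, 133.3 and 140.1 CPM in the control and 207.7, 227.5 and 223.6 CPM in the knockdown (log2 fold change 0.74 ± 0.06 SE, edgeR adjusted p = 5.68e-05). Its blood-cell paralogue RAC2 fell by 0.47 ± 0.03 on the log2 scale (SE, edgeR adjusted p = 7.3e-06), from 451.2 to 326.8 CPM. The 2 Rac genes thus moved in opposite directions. CDC42BPB, a kinase that phosphorylates LIM kinases, rose by 0.41 ± 0.05 on the log2 scale (SE, edgeR adjusted p = 0.000751). RHOA, the GTPase that activates ROCK, did not pass (0.08 ± 0.03, edgeR adjusted p = 0.127). All 3 PAK genes in the list fell. PAK2, chosen for mention after its values were seen, went from 74.9, 68.3 and 67.1 CPM in the control to 18.5, 10.7 and 19.2 CPM in the knockdown (log2 fold change -2.12 ± 0.19 SE, edgeR adjusted p = 8.81e-05).

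Among 19 genes that regulate slingshot, LIM kinases, TESK1 or chronophin, 8 rose, 3 fell and 8 did not pass. YWHA adaptor proteins bind phosphorylated cofilin, slingshot and LIM kinases. YWHAZ rose from 220.7 ± 17.3 to 479.6 ± 15.2 CPM (SD, n = 3) (log2 fold change 1.12 ± 0.06 SE, edgeR adjusted p = 3.77e-06). YWHAG rose by 0.54 ± 0.05 and YWHAE by 0.45 ± 0.07 on the log2 scale (SE, edgeR adjusted p = 8.19e-05 and 0.00246). ARRB1, a beta-arrestin that scaffolds cofilin phosphatases, was at 253.5, 256.8 and 261.6 CPM in the control and 95.6, 92.7 and 94.1 CPM in the knockdown (log2 fold change -1.45 ± 0.03 SE, edgeR adjusted p = 7.06e-08). Its groups were tight and far apart.

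Partners of cofilin in filament disassembly and recycling gave 3 higher and 3 lower of 10. CAP1, which recycles cofilin-bound actin monomers, rose from 396.1 ± 27.9 to 1059 ± 22.5 CPM (SD, n = 3) (log2 fold change 1.42 ± 0.05 SE, edgeR adjusted p = 6.39e-07). WDR1, which speeds disassembly of cofilin-coated filaments, rose by 0.35 ± 0.03 on the log2 scale (SE, edgeR adjusted p = 2.12e-05). CORO1A, a filament-binding coronin of blood cells, was at -0.53 ± 0.05 and GMFG, a debranching relative of cofilin, at -0.42 ± 0.04 (SE, edgeR adjusted p = 0.000171 and 8.77e-05).

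Of 6 genes of actin and its monomer binders, 3 rose, 2 fell and 1 did not pass. TMSB4X, which encodes thymosin beta-4, a monomer-sequestering peptide, was at 507.8, 556.0 and 575.1 CPM with the control vector and 2344, 2641 and 2599 CPM with the hairpin. Its log2 fold change, 2.21 ± 0.06 SE with an edgeR adjusted p of 2.05e-07, was the largest of the 35 pathway genes averaging 500 counts or more. The actin genes ACTB (0.14 ± 0.03) and ACTG1 (0.23 ± 0.02) rose slightly (SE, edgeR adjusted p = 0.0142 and 0.000259), and the monomer binder PFN1 fell by 0.17 ± 0.02 on the log2 scale (SE, edgeR adjusted p = 0.00127). Actin and thymosin genes have many near-identical copies, so their counts are uncertain. PDXK, which encodes the kinase that makes pyridoxal phosphate, fell by 0.24 ± 0.05 on the log2 scale (SE, edgeR adjusted p = 0.0111).

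**Figure D4:**
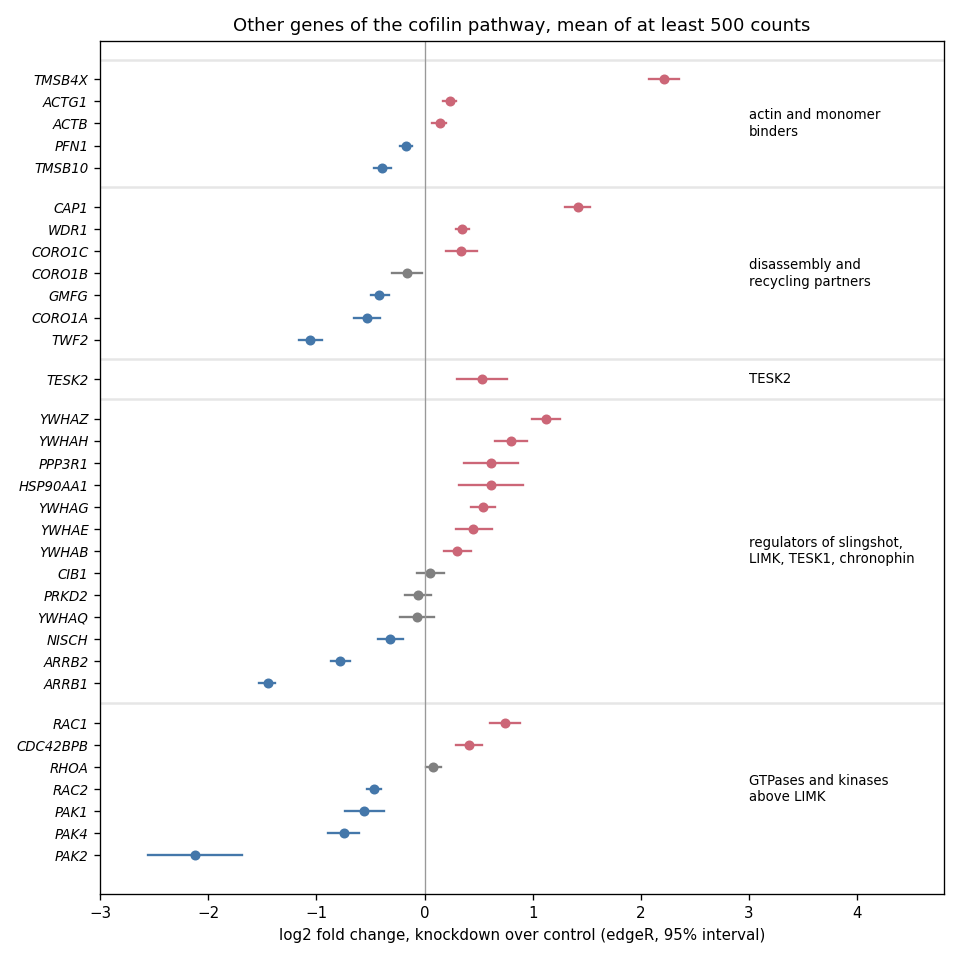
Log2 fold change, knockdown over control, with 95% intervals from the edgeR fit, of 33 other pathway genes averaging 500 counts or more, by group, without the vitamin B6 enzymes. Red genes passed upward (16), blue genes downward (12) and grey genes did not pass, and TMSB4X (2.21) and PAK2 (-2.12) lie at the ends.

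Over the 6 libraries, the genes averaging 500 counts or more whose log2 CPM was most correlated with CFL1 were BLTP2 (Pearson's r = 0.9986), GFUS (0.9986) and DDA1 (0.998). For SSH1 they were RTF2 (0.9998), HDLBP (0.9995) and PHACTR4 (0.9993). These r values describe 6 points that fall into 2 groups, and 24 genes for CFL1 and 154 for SSH1 of 5038 exceeded 0.99. The changes of these genes were of other sizes than that of SSH1, with log2 fold changes of 0.45 for RTF2, 0.73 for HDLBP and 0.48 for PHACTR4.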

How the data were processed

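Poly(A)-selected RNA from 6 libraries of MEG-01 cells was sequenced in paired-end mode, per the labels' protocols. The authors deposited 1 table of counts per gene, whole numbers that the file headers call raw. Per the submitters' processing notes, which give no roles, the tools were STAR, HTSeq, fastp, FastQC, DESeq2 and R 4.3.3 and the genome was GRCh38. Not given in the sources used here are the strand setting, the counting mode and the annotation. Of 61852 genes, 61848 had a symbol.

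Counts were fitted with edgeR 4.0.16 (TMM scaling, filterByExpr at a minimum count of 10, robust quasi-likelihood F-test, no block) on 28303 genes, and a gene passed where its Benjamini-Hochberg adjusted p was under 0.05. SEs and 95% intervals are from the same fit. CPM uses TMM-scaled library sizes, and CPM per kilobase uses merged exons of GENCODE release 29. A likelihood model treated each value as negative binomial reads (dispersion 0.00293, the same for all genes) plus a number drawn equally from 0, 1, 2, 10 and 100. DESeq2 1.42.0, limma 3.58.1 (voom), other scalings and filters, the replicate number as a block and each library left out, with the same genes tested, were alternatives. The removal of GC and length trends and the sums without length were chosen after seeing the data. Scripts were checked on simulated counts.

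All 10 members are named. Of 49 other pathway genes, up to 4 of each group are named, those with the largest mean count. PAK2 was named outside this rule, after its values were seen. A gene that this rule names and a marker are not reported here. The members and lists were chosen with earlier results of these data known. MELK is given as the target check, and the 3 genes most like CFL1 and SSH1 by correlation. Marker lists were megakaryocyte, erythroid, granulocyte and monocyte, and lymphocyte.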

Additional observations from a re-analysis of the deposited data

How the results depend on the processing

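The calls on CFL1, DSTN and SSH1 upward and on SSH3 downward held under all 18 alternatives, with log2 fold changes of 0.14 to 0.35, 0.75 to 1.14, 1.04 to 1.19 and -0.61 to -0.29. LIMK1, near 0 throughout, turned to 0.06 with library size alone, 0.00 among genes averaging 500 counts or more, 0.02 without control replicate 3 and 0.07 with GC and length trends removed. TESK1 turned to -0.03 without knockdown replicate 1 and reached 0.21 without knockdown replicate 2. PDXP ran from -2.40 without knockdown replicate 2 to 1.62 without control replicate 1, and was 0.15 without knockdown replicate 1 and 0.22 without knockdown replicate 3. The added number modelled moved CFL2 (1.87), SSH2 (-0.30) and PDXP (-2.14) past the threshold, and its single dispersion makes those intervals too narrow for genes that vary more. With the replicate number as a block, 4182 genes passed beside 4683, and the members gave 3 higher and 1 lower as without it. Same-numbered libraries deviated together weakly or not at all (correlations 0.0996, -0.0123 and -0.0801). CFL2, TESK1, SSH2 and PDXP had no value among genes averaging 500 counts or more, and PDXP none at 5 CPM in 3 libraries. The added number limits the members with few counts.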
